A study of Mus musculus with 10 samples.

Results

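Zinc finger protein genes with a numbered Zfp symbol were examined in effector memory (EM) γδ T cells, the CD62L-CD44+ fraction of γδ T cells, from spleens of mice that had cleared a Plasmodium chabaudi infection and of naïve mice. Of 27179 genes in the count table, 390 had a symbol made of Zfp, a number and at most 1 letter, and 277 of these were selected on measured expression, with a mean of at least 5 CPM over all 10 libraries, where CPM are counts scaled to a library total of 1000000. The CPM limit used both groups together and not the difference between them. The family and the comparison were, however, chosen with earlier results of these data known. The last genes inside the limit were Zfp239, Zfp947 and Zfp516, with means of 5.34, 5.37 and 5.43 CPM, and the first outside it were Zfp202 with 4.91, Zfp661 with 4.80 and Zfp438 with 4.64 CPM. All 277 members passed the filter on low counts and were tested, as were 54 of the other 113 genes.

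The study asked whether EM γδ T cells keep a changed transcriptome after malaria has been cured. All mice were female C57BL/6, aged 6 to 8 weeks at the start, and all received chloroquine and pyrimethamine. The 5 pre-exposed mice had been given 50000 infected red blood cells intravenously, were drug-treated from day 14, and 12 weeks after the end of treatment their EM γδ T cells were sorted. The 5 naïve mice had no infection and received the same drugs at the matching time. Each library came from 1 mouse and 1 ng of RNA, and the cells were a sorted fraction of a mixed tissue, so that a smaller share of a cell type and less RNA per cell cannot be told apart.

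Most proteins of this family bind DNA through rows of C2H2 fingers, each a short loop held by a zinc ion between 2 cysteines and 2 histidines. Many carry a Krüppel-associated box (KRAB) at the start of the protein, which recruits the co-repressor TRIM28 and with it the histone methyltransferase SETDB1, so that chromatin is silenced at the bound site. KRAB zinc finger genes lie in clusters that arose by repeated duplication, and the best known of them silence endogenous retroviruses and keep genomic imprints. Other members share only the finger fold, and some of those bind RNA.

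A KRAB pattern was found in 158 of the 273 members with a reading frame in the annotation, and 115 had none. The pattern was a match to either of 2 stretches of the KRAB. The second is given for 8 of the 10 members lower in pre-exposed mice with the smallest p, since most of that list carried it. Capitals mark the codons of an acidic residue or asparagine, valine and methionine, and a glutamate 2 residues further on. The pattern also fixes the first codon of the stretch, left in small letters, as tyrosine or histidine.
Zfp729a: tacaggGACGTGATGctcGAG
Zfp760: tacattGATGTGATGttgGAA
Zfp709: cacaaaGATGTAATGgagGAG
Zfp866: tacagaGATGTGATGctgGAG
Zfp952: tacagaGATGTGATGacgGAG
Zfp960: tacaaaGATGTGATGctcGAA
Zfp748: tacaggGACGTGATGctgGAG
Zfp51: tacattGATGTGATGttgGAG
All 8 stretches were coding and lay inside a single exon (GRCm38, GENCODE M21 transcripts). They were on the plus strand at chr17:21721025-21721045 in exon 5 of 6 for Zfp760, chr8:71887345-71887365 in exon 2 of 4 for Zfp709, chr17:33001705-33001725 in exon 2 of 4 for Zfp952, chr17:17085602-17085622 in exon 2 of 4 for Zfp960 and chr17:21461742-21461762 in exon 4 of 5 for Zfp51. On the minus strand, in exon 2 of 4 each, were those of Zfp729a at chr13:67624060-67624080, Zfp866 at chr8:69769146-69769166 and Zfp748 at chr13:67546650-67546670. No 2 of the 8 were identical in their 21 bases.

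The libraries held 8747888 to 22542832 counts in pre-exposed and 6587199 to 19993444 in naïve mice, and 276 or 277 members had at least 1 count in each. Summed CPM of γδ T cell markers (5 of 8 listed were counted) was 3323 to 10617 in pre-exposed and 4522 to 7522 in naïve mice. B cell markers summed to 43.2 to 134 CPM in pre-exposed and 42.4 to 98.7 CPM in naïve mice, with Pax5 at 0 in every library and 2 of the 3 tested higher by edgeR. Immunoglobulin genes, which were left out of the tests, took 1.70% to 6.68% of counts in pre-exposed mice 1 to 3 and 0.556% and 0.345% in mice 4 and 5, against 0.0845% to 0.737% in naïve mice. Markers of αβ T cells summed to 1576 to 3289 CPM in pre-exposed and 1642 to 1992 CPM in naïve mice, with 1 of 6 higher. Monocyte and macrophage markers summed to 517 to 1946 CPM in pre-exposed and 229 to 307 CPM in naïve mice, 4 of the 5 tested being higher by edgeR. Dendritic cell markers summed to 99.2 to 669 CPM in pre-exposed and 113 to 166 CPM in naïve mice (4 of 8 higher), and erythroid markers to 333 to 2040 CPM in pre-exposed and 80.1 to 462 CPM in naïve mice (4 of 6 higher). The part of such cells in the values below was not tested. Pre-exposed mouse 5 stood apart, with 24.7% of its counts in 10 genes against 5.61% to 10.2% in every other library. The labels name an index pair for 7 libraries and none for pre-exposed mice 2, 3 and 4, so values are also given for these 3 mice and for pre-exposed mice 1 and 5 apart. Across all genes, the deviation of a gene from its mean followed gene length differently in the libraries, with Spearman's rho from -0.54 to -0.14 in pre-exposed mice 2 to 5, 0.27 in pre-exposed mouse 1 and 0.26 to 0.41 in the naïve mice.

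Most Zfp members had a log2 fold change below 0 in EM γδ T cells of pre-exposed mice. With edgeR's quasi-likelihood test, adjusted over the 12655 genes tested with a threshold of 0.05, 27 of the 277 members were lower and 0 were higher, while 1.18% of all genes tested were lower and 5.12% were higher. The median log2 fold change, pre-exposed against naïve, was -0.60 for the members and 0.02 for all genes tested, and 233 members had a value below 0. At an unadjusted p under 0.05 edgeR had 104 members (37.5%) lower and 7 (2.53%) higher, against 8.74% and 15.6% of all genes tested. DESeq2 called 47 members (17%) lower and 0 higher, against 2.7% and 7.97% of all genes tested. In 28 members every pre-exposed mouse was below every naïve mouse, which is 10.1% of them against 2.17% of all genes tested, and in 0 members was every pre-exposed mouse above every naïve mouse, against 2.77% of all genes tested.

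Together the members took 1.21%, 0.825%, 1.06%, 0.916% and 0.796% of the counts in pre-exposed mice 1 to 5, against 1.73%, 1.66%, 1.44%, 1.55% and 1.32% in naïve mice 1 to 5. In these shares of the library total every pre-exposed mouse was below every naïve mouse, with means of 0.962% ± 0.174 in pre-exposed and 1.54% ± 0.165 in naïve mice (SD, n = 5 each). With TMM scaling the groups overlapped, the members having sums of 12671, 9053, 11005, 8836 and 12646 CPM in pre-exposed mice 1 to 5, against 18133, 17179, 15192, 15716 and 12597 CPM in naïve mice 1 to 5. Pre-exposed mouse 5, with the lowest share and the smallest TMM factor (0.68), and mouse 1 then lay just above naïve mouse 5. The size of the shift differed between pre-exposed mice. Measured as the median over members of the log2 CPM minus the mean of the naïve mice, it was -0.28, -0.93, -0.58, -0.66 and -0.51 in pre-exposed mice 1 to 5, while the naïve mice lay between -0.25 and 0.16.

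**Figure D1:**
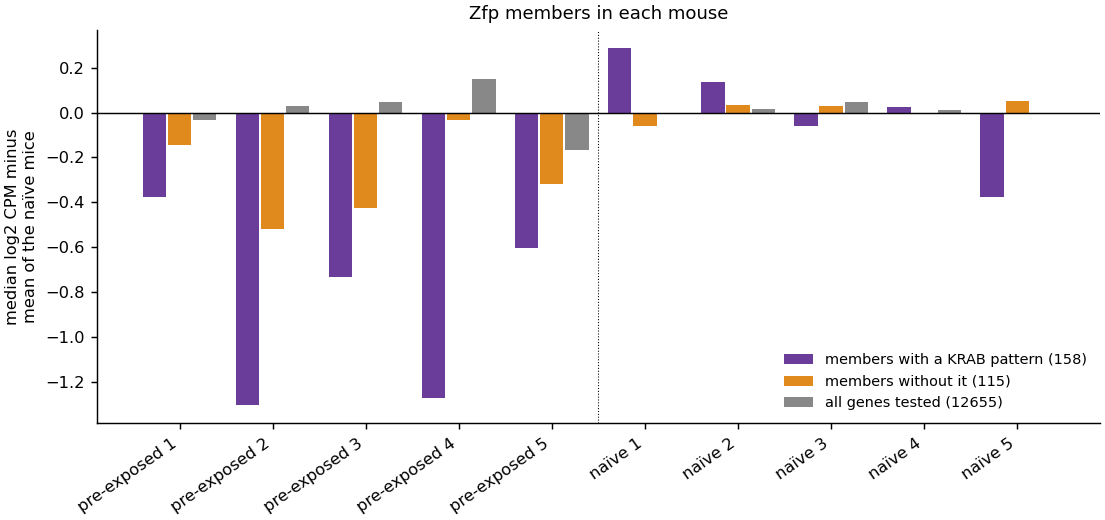
Bars give, for each mouse, the median over genes of the log2 CPM minus the mean of the naïve mice (y axis, log2 units), for members with a KRAB pattern, members without it and all genes tested. KRAB members were below 0 in all 5 pre-exposed mice, from -0.38 in mouse 1 to -1.30 in mouse 2, and lay between -0.37 and 0.29 in the naïve mice.

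The count of 27 changed with nearly every library left out, while the median changed little. Without pre-exposed mouse 1 or mouse 5, edgeR called 55 and 82 members lower, and without pre-exposed mouse 2, 3 or 4 it called 3, 9 and 11. Without naïve mouse 1, 2, 3, 4 or 5 it called 2, 3, 11, 3 and 6, and over all 10 such fits the median stayed between -0.69 and -0.51. With an offset for the trend with gene length, described below, 5 members were lower.

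Zfp729a, a KRAB gene of chromosome 13 (Entrez Gene 212281, chr13:67612760-67637803, GRCm38), had the smallest p of all members. It had 32.2, 15.5, 19.2, 17.6 and 21.3 CPM, scaled by the trimmed mean of M-values (TMM), in pre-exposed mice 1 to 5, against 108, 73.9, 46.7, 73.5 and 64.6 CPM in naïve mice 1 to 5. The groups did not overlap, and naïve mouse 1 was the highest. The log2 fold change was -1.80 ± 0.283 (SE, edgeR adjusted p = 0.00802), and in an exact two-sided permutation test over the 10 mice p was 0.00794, the smallest that 5 against 5 mice allow. That value follows once the groups do not overlap, and the gene was picked by its p in these libraries. The permutation test therefore adds no separate support.

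Zfp760, on chromosome 17, had the largest fold change of all members. Its levels were 13.0, 3.11, 10.2, 3.54 and 2.54 CPM in pre-exposed mice 1 to 5, against 37.6, 30.4, 47.3, 41.6 and 36.7 CPM in naïve mice 1 to 5. Pre-exposed mice 1 and 3 were the highest of their group and still below every naïve mouse, and the log2 fold change was -2.57 ± 0.415 (SE, edgeR adjusted p = 0.00897). Zfp709, on chromosome 8, had 39.9, 11.5, 36.5, 15.2 and 18.5 CPM in pre-exposed mice 1 to 5, against 81.0, 78.2, 90.3, 87.3 and 67.2 CPM in naïve mice 1 to 5. Here too pre-exposed mice 1 and 3 were highest in their group and the groups did not overlap, with a log2 fold change of -1.73 ± 0.329 (SE, edgeR adjusted p = 0.0141).

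Zfp970, on chromosome 2, was the single gene of these 10 without a KRAB pattern in the reading frames searched. It had 21.3, 10.4, 11.9, 10.7 and 11.3 CPM in pre-exposed mice 1 to 5, against 34.6, 31.2, 24.4, 34 and 26.9 CPM in naïve mice 1 to 5. Pre-exposed mouse 1 stood closest to the naïve mice, and the log2 fold change was -1.21 ± 0.276 (SE, edgeR adjusted p = 0.0247). Of its transcript windows of 75 bases, 33.4% also occurred in transcripts of other genes, so that its level cannot be assigned to a single copy.

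Zfp866 had 56.5, 51.0, 37.1, 44.3 and 44.3 CPM in pre-exposed mice 1 to 5, against 120, 137, 71.5, 98.8 and 66.9 CPM in naïve mice 1 to 5. Zfp952 had 36.1, 40.2, 44.6, 39.7 and 30.5 CPM in pre-exposed mice 1 to 5, against 79.7, 93.2, 54.6, 72.1 and 72.8 CPM in naïve mice 1 to 5. Neither gene's groups overlapped, and their pre-exposed levels lay closer together than the naïve ones, with log2 fold changes of -1.08 and -0.96 (edgeR adjusted p = 0.0262 for each). Zfp960 had 37.6, 11.3, 22.2, 7.84 and 19.6 CPM in pre-exposed mice 1 to 5, against 76.5, 56.4, 51.1, 62.6 and 40.9 CPM in naïve mice 1 to 5. Mouse 1 was again the highest of the pre-exposed mice and below every naïve mouse, and the log2 fold change was -1.56 (edgeR adjusted p = 0.0278), but 76.8% of its windows occurred in other genes.

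Zfp748, in the same cluster of chromosome 13 as Zfp729a, had 64.5, 23.5, 66.4, 45.1 and 21.1 CPM in pre-exposed mice 1 to 5, against 185, 146, 80.6, 107 and 99.3 CPM in naïve mice 1 to 5. Zfp51, the most abundant of the 10, had 206, 94.9, 147, 63.8 and 123 CPM in pre-exposed mice 1 to 5, against 427, 329, 276, 304 and 200 CPM in naïve mice 1 to 5. The groups did not overlap in Zfp748, and in Zfp51 they overlapped by pre-exposed mouse 1 and naïve mouse 5. The log2 fold changes were -1.48 for Zfp748 and -1.28 for Zfp51 (edgeR adjusted p = 0.0283 and 0.0293). Zfp955a had 40.4, 21.5, 38.8, 24.8 and 53.2 CPM in pre-exposed mice 1 to 5, against 91.5, 93.5, 88.0, 64.6 and 53.0 CPM in naïve mice 1 to 5, and its log2 fold change was -1.14 (edgeR adjusted p = 0.0327). Pre-exposed mouse 5 and naïve mouse 5 were level in that gene, and 37.1% of its windows occurred in other genes.

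**Figure D2:**
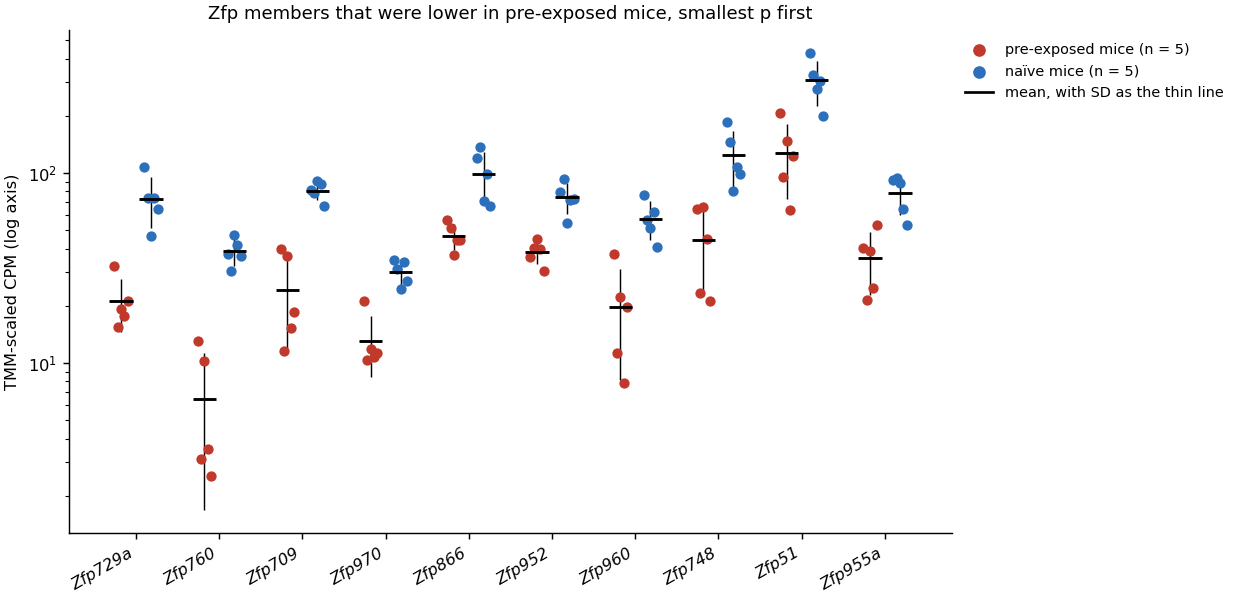
Points are single mice, with TMM-scaled CPM on a logarithmic y axis, for the 10 members with the smallest p among those lower in pre-exposed mice (left, red) than in naïve mice (right, blue), with group means and SD. The groups do not overlap in any gene but Zfp51 and Zfp955a, and Zfp760 shows the widest separation, with 2.54 to 13.0 CPM in pre-exposed and 30.4 to 47.3 CPM in naïve mice.

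The other 17 members that were lower were Zfp606, Zfp97, Zfp433, Zfp33b, Zfp874b, Zfp763, Zfp846, Zfp948, Zfp85, Zfp266, Zfp40, Zfp992, Zfp455, Zfp942, Zfp930, Zfp955b and Zfp617, with log2 fold changes between -1.85 in Zfp33b and -0.89 in Zfp266. Of all 27, every pre-exposed mouse was below every naïve mouse in 16, 4 of the 5 pre-exposed mice were in 8, and 3 were in 3. Over all genes tested, called or not, every pre-exposed mouse was below every naïve mouse in 2.17%. The 27 were called on the difference between these same mice, so little overlap follows in part from the call. Zfp33b had 52.6, 6.47, 15.3, 9.09 and 26.3 CPM in pre-exposed mice 1 to 5, against 99.4, 87.6, 83.4, 73.8 and 44.9 CPM in naïve mice 1 to 5, and Zfp40 had 29.4, 7.64, 3.98, 4.09 and 18.3 CPM against 42.1, 41.7, 47.8, 32.8 and 45.4 CPM. In both genes pre-exposed mice 2 to 4 were the lowest. In Zfp40 mice 1 and 5 lay between them and the naïve mice, while in Zfp33b mouse 1 lay within the naïve range. Sequence shared with other genes was largest in Zfp433 and Zfp97, with 90.8% and 75.3% of windows, and for such genes the same holds as for Zfp970. Zfp433, Zfp846, Zfp85, Zfp992, Zfp930 and Zfp955b overlap another annotated gene, whose reads could not be told apart where the counting did not use strand.

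The log2 fold changes of KRAB members lay lower than those of the other members. Of the 158 with the pattern 25 were lower, with a median log2 fold change of -0.76, and 146 had a value below 0. Of the 115 without it 1 was lower, Zfp970, with a median of -0.31, and 84 had a value below 0. The remaining called member, Zfp33b, was among the 4 with no reading frame in the annotation. The difference between the sets was not tested, and it was seen within each pre-exposed mouse. The KRAB members had medians of -0.38, -1.30, -0.73, -1.27 and -0.60 in pre-exposed mice 1 to 5, while the members without the pattern had -0.14, -0.52, -0.43, -0.04 and -0.32 in the same mice. In naïve mice 1 to 5 the KRAB members lay at 0.29, 0.13, -0.06, 0.02 and -0.37, and the others between -0.06 and 0.05, so that naïve mouse 5 was the lowest naïve mouse in KRAB members and level with the rest in the others. KRAB members in which fewer than 10% of windows were shared and which overlapped no other gene numbered 87, with 14 lower and a median of -0.72.

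Genes outside the symbol pattern in which the same features were found by the search gave like values. There were 19 tested genes with a KRAB pattern, at least 5 fingers and a mean of 5 CPM or more that were no members, such as Rsl1, Rbak, AI987944 and 2610008E11Rik. Their median was -0.86, all 19 were below 0, and 1 was lower by edgeR, 2610008E11Rik (log2 fold change -1.31, adjusted p = 0.0384). In 74 genes with at least 5 fingers and no KRAB pattern the median was -0.29, with 2 lower and 1 higher. Of other zinc finger families, 20 tested Zkscan and Zscan genes, which carry a SCAN domain, had a median of -0.06. Of these 0 were called by edgeR or DESeq2 (2 at an unadjusted p under 0.05). The name Zkscan stands for a KRAB as well as a SCAN domain, but none of the 19 genes above was a Zkscan gene. The Zkscan and Zscan genes were not split by the KRAB pattern. The 37 Zbtb genes, with a BTB domain, had a median of -0.40 with 2 lower, and 13 Klf genes -0.14 with 1 lower.

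The number of fingers in the longest reading frame went with the fold change. Members with 0 to 4 fingers (37) had a median of -0.18 and 0 lower, those with 5 to 9 (80) -0.44 and 2 lower, those with 10 to 14 (98) -0.74 and 16 lower, and those with 15 or more (58) -0.67 and 8 lower. Across the 273 members with a reading frame, Spearman's rho of finger number and log2 fold change was -0.35, as a description over genes that share libraries and, in part, sequence.

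In the genome, 169 members lay in 26 clusters, defined as runs of Zfp genes with gaps of at most 500 kb that held at least 3 members. Of these members 24 were lower, with a median of -0.67, and of the 108 outside clusters 3 were lower, Zfp960, Zfp97 and Zfp33b, with a median of -0.48. KRAB members had a median of -0.78 inside clusters (130) and -0.74 outside them (28), and members without the pattern -0.24 inside (37) and -0.32 outside (78). The cluster medians were below 0 in 25 of 26 clusters, and 10 clusters held a member that was lower.

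The largest cluster was on chromosome 13 (chr13:66670274-67827000, GRCm38), with 24 Zfp genes and 21 members from Zfp712 to Zfp273, each of which had a KRAB pattern. All 21 had a log2 fold change below 0, the median was -1.13, and 5 were lower, Zfp729a, Zfp748, Zfp874b, Zfp85 and Zfp455. The 8 other tested genes inside its bounds had a median of 0.22 with 0 called. Here and below, other genes inside a cluster are those outside the Zfp symbol pattern, so zinc finger genes of other names can be among them. Zfp87, the most abundant gene of the cluster, had 70.9, 106, 103, 87.9 and 51.4 CPM in pre-exposed mice 1 to 5, against 146, 152, 89.2, 114 and 82.4 CPM in naïve mice 1 to 5, which overlap, with a log2 fold change of -0.48 (edgeR adjusted p = 0.279).

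The cluster next in size was on chromosome 17 (chr17:21008941-23599755), with 20 members from Zfp160 to Zfp213, 19 of them with a KRAB pattern. All 20 were below 0, with a median of -1.06, and Zfp760, Zfp51, Zfp948, Zfp40 and Zfp942 were lower. The 4 other tested genes inside its bounds had a median of -1.48, with 3 below 0 and 1 lower, unlike those of the chromosome 13 cluster. How many of these other genes encode zinc finger proteins was not examined in either cluster. A separate cluster of the same chromosome (chr17:32765496-33631716) held 12 members from Zfp871 to Zfp414, with a median of -0.76 and 4 lower, Zfp952, Zfp955a, Zfp763 and Zfp955b, and 3 other genes with a median of -0.19. On chromosome 8 the 4 members from Zfp709 to Zfp961 had a median of -1.15, with Zfp709 and Zfp617 lower, and the 5 from Zfp930 to Zfp866 had -1.02, with Zfp930 and Zfp866 lower and 2 other genes at a median of -0.67.

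Chromosome 7 held 66 members, more than any other chromosome, and 1 of them was lower, Zfp606, with 27.6, 9.44, 15.8, 13.4 and 20.2 CPM in pre-exposed mice 1 to 5, against 62.5, 36.8, 28.3, 38.3 and 41.2 CPM in naïve mice 1 to 5. The groups of Zfp606 did not overlap, and its log2 fold change was -1.27 (edgeR adjusted p = 0.0328). The 13 members of the cluster from Zfp84 to Zfp146 (chr7:29768552-30169775) had a median of -0.33 with 0 called. The single cluster with a median above 0 lay at chr7:4915181-5053723, with the 4 members Zfp579, Zfp524, Zfp865 and Zfp784, none with a KRAB pattern, and a median of 0.31. On chromosome 6, the 9 members from Zfp398 to Zfp775, of which 2 had a KRAB pattern, had a median of -0.20 with 0 called.

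**Figure D3:**
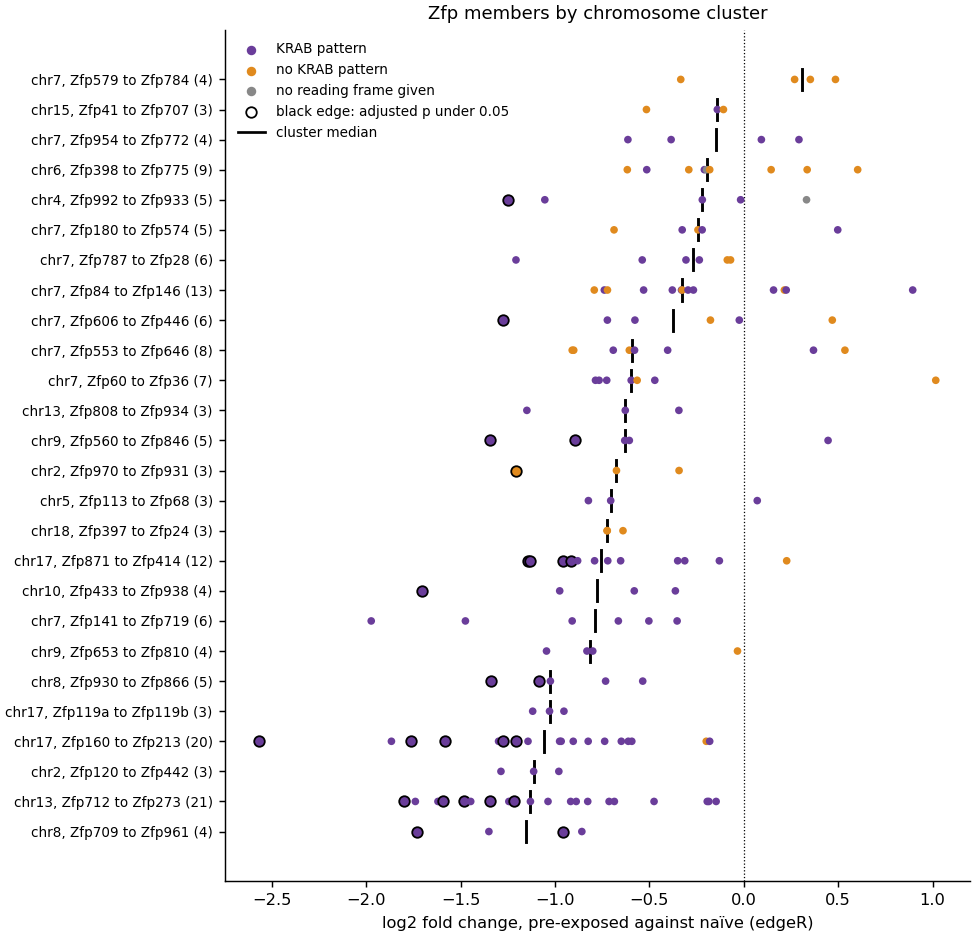
Each point is a member in 1 of 26 chromosome clusters (rows, named by chromosome and first and last member, with the number of members), with the log2 fold change, pre-exposed against naïve, on the x axis. Colours give the KRAB pattern, a black edge marks an edgeR adjusted p under 0.05 and the black bar is the cluster median, which runs from 0.31 to -1.15.

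Over all libraries and without a length offset, the median fold change of members without a KRAB pattern differed between short and long genes. In members with the pattern it was similar in all length bins in that fit, a contrast that was not tested. In bins of exonic length under 2000, 2000 to 3000, 3000 to 4000, 4000 to 6000 and at least 6000 bases, the median log2 fold changes of KRAB members were -0.79, -0.83, -0.74, -0.77 and -0.68 (9, 56, 43, 38 and 12 genes). Members without the pattern had 0.29, 0.03, -0.50, -0.40 and -0.50 (14, 21, 29, 33 and 18 genes), and the other tested genes with a mean of 5 CPM or more had 0.45, -0.02, -0.22, -0.34 and -0.35. Across genes, Spearman's rho of length and log2 fold change was -0.12 over the 277 members and -0.51 over all genes tested. With an offset that removes each library's trend with length, 5 members were lower by edgeR, Zfp729a, Zfp760, Zfp709, Zfp433 and Zfp874b, against 0.34% of all genes tested. The median of the members was then -0.41, that of the KRAB members -0.60, and that of members without the pattern -0.12, while all genes tested had -0.01.

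**Figure D4:**
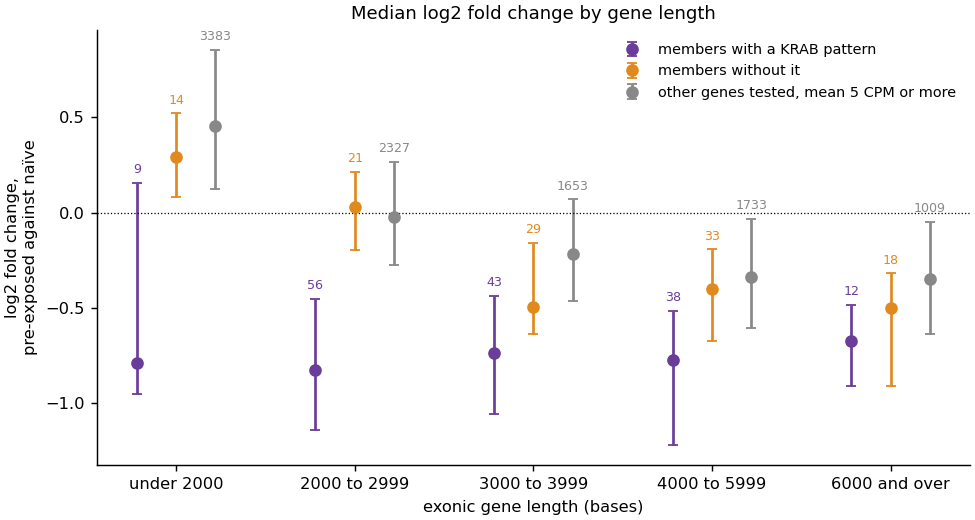
Points are medians and bars the interquartile range over genes of the log2 fold change, pre-exposed against naïve, in 5 bins of exonic length (x axis, bases), with the number of genes above each bar. Members with a KRAB pattern stay between -0.83 and -0.68 in every bin, while members without it and the other genes tested have higher medians in the shorter bins.

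Length also marked single members. The 3 shortest, Zfp688, Zfp637 and Zfp511, with 1016, 1099 and 1100 bases, had log2 fold changes of 0.37, 0.48 and 0.53, and the 3 longest, Zfp704, Zfp26 and Zfp871, with 13844, 11407 and 10851 bases, had -0.85, -0.61 and -0.35. None of the 6 passed the test over all libraries, and with the length offset Zfp688, Zfp637 and Zfp871 changed sign, to -0.20, -0.04 and 0.06. By level, members with a mean of 5 to 10, 10 to 20, 20 to 50 and at least 50 CPM had medians of -0.33, -0.33, -0.69 and -0.72. Of the 33, 73, 88 and 83 members in these bins, 0, 2, 12 and 13 were lower. Among other genes tested in the same bins 0.575%, 0.784%, 1.06% and 1.38% were lower, so calls rose with level there too.

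The parts of the pre-exposed group differed. In pre-exposed mice 2 to 4 against the naïve mice, 98 members were lower and 2 higher by edgeR, with a median of -0.74, while 8.27% and 9.55% of all genes tested were lower and higher. In pre-exposed mice 1 and 5 against the same naïve mice, 1 member was lower, with a median of -0.44, and 0.0079% of all genes tested were lower. That member, named after its values were seen, was the KRAB gene Zfp599, with 8.94, 20.6, 19.5, 17 and 3.09 CPM in pre-exposed mice 1 to 5, against 35.1, 22.6, 34.8, 25 and 28.9 CPM in naïve mice 1 to 5. Mice 2 to 4 were its highest pre-exposed mice, and no pre-exposed mouse reached the naïve range. Zfp599 overlaps Zfp809 in the annotation, and over all libraries its log2 fold change was -1.05 (edgeR adjusted p = 0.106).

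All 27 members that were lower over all libraries were also among the 98. Both comparisons used mice 2 to 4 and the same naïve mice, so this overlap follows in part from the design. KRAB members had a median of -1.05 in mice 2 to 4, with 75 of 158 lower, and -0.53 in mice 1 and 5, with 1 lower. Members without the pattern had -0.41 in mice 2 to 4, with 22 lower and 2 higher, and -0.24 in mice 1 and 5. Tested directly in the same fit, 27 members were lower in pre-exposed mice 2 to 4 than in mice 1 and 5, against 2.73% of all genes tested, 16 of them with a KRAB pattern, and only Zfp33b and Zfp40 were also lower over all libraries. The longest genes among them were Zfp26 and Zfp292. Zfp292, which encodes a large transcription factor, had 163, 50.2, 83.6, 91.2 and 279 CPM in pre-exposed mice 1 to 5, against 238, 236, 215, 187 and 171 CPM in naïve mice 1 to 5. Malat1, an abundant nuclear RNA, had 2242, 2874 and 1585 CPM in pre-exposed mice 2, 3 and 4, 8391 and 51766 CPM in mice 1 and 5, and 5805 to 13031 CPM in naïve mice. The part of the index pair, of library quality and of Malat1-rich RNA in these differences was not tested.

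The 6 members with the highest mean CPM were Zfp36, Zfp207, Zfp706, Zfp68, Zfp53 and Zfp386. Their group means were 342, 102, 88, 47.3, 66.6 and 84.3 CPM per kilobase of exon in pre-exposed mice, against 169, 116, 65.3, 77, 104 and 156 in naïve mice. Zfp36 was thus first in both groups, and the order of the others differed between them. Zfp36, or tristetraprolin, binds AU-rich elements of cytokine mRNAs through CCCH fingers and promotes their decay. It had 633, 862, 670, 709 and 146 CPM in pre-exposed mice 1 to 5, against 227, 265, 347, 336 and 320 CPM in naïve mice 1 to 5. Pre-exposed mice 1 to 4 were above every naïve mouse and mouse 5 below all of them, and the log2 fold change of 1.02 ± 0.352 did not pass (SE, edgeR adjusted p = 0.0939) although it was the largest positive value of any member. In pre-exposed mice 2 to 4 Zfp36 was higher, with a log2 fold change of 1.32 (edgeR adjusted p = 0.0214).

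Zfp386, a KRAB gene, had 186, 128, 161, 94.2 and 303 CPM in pre-exposed mice 1 to 5, against 424, 332, 293, 273 and 292 CPM in naïve mice 1 to 5, and 4 of the pre-exposed mice were below every naïve mouse. Zfp207, which encodes a spindle assembly factor, had 424, 370, 381, 304 and 418 CPM in pre-exposed mice 1 to 5, against 496, 446, 455, 437 and 331 CPM in naïve mice 1 to 5, with overlapping groups. The log2 fold changes were -0.89 for Zfp386 and -0.19 for Zfp207 (edgeR adjusted p = 0.0748 and 0.597), and that of Zfp207 turned to 0.06 with the length offset. Zfp706, a short protein with 1 finger, had 300, 506, 386, 317 and 434 CPM in pre-exposed mice 1 to 5, against 351, 293, 277, 288 and 235 CPM in naïve mice 1 to 5. The KRAB genes Zfp53 and Zfp68 averaged 205 ± 65.3 and 224 ± 47.7 CPM in pre-exposed mice, against 321 ± 67.7 and 364 ± 91.1 CPM in naïve mice (SD, n = 5 each). None of the last 3 passed the test, with log2 fold changes of 0.43, -0.65 and -0.71.

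Repressors of retroelements and keepers of imprints were represented by 5 members, of which edgeR called 0 over all libraries (2 at an unadjusted p under 0.05, and 1 by DESeq2) and 4 lower in pre-exposed mice 2 to 4. Zfp809 silences murine leukaemia virus type elements by binding their primer binding site. It had 65.3, 35.7, 40.4, 29.7 and 42.5 CPM in pre-exposed mice 1 to 5, against 87.3, 83.2, 60.7, 77.9 and 70.2 CPM in naïve mice 1 to 5, and only pre-exposed mouse 1 overlapped the naïve range. Its log2 fold change was -0.83 (edgeR adjusted p = 0.0569). Zfp445, a regulator of genomic imprints, had 109, 24.1, 32.5, 37.9 and 136 CPM in pre-exposed mice 1 to 5, against 179, 151, 133, 115 and 128 CPM in naïve mice 1 to 5, with mice 2 to 4 far below mice 1 and 5 and a log2 fold change of -1.07 (edgeR adjusted p = 0.13). The paper, with voom and TREAT, listed Zfp445 as lower. Zfp932 and Zfp568, which act on endogenous retroviruses and on a placental Igf2 transcript, had log2 fold changes of -0.69 and -0.53, and Zfp708 had -0.19. All windows of Zfp708 were shared with other genes, and its sign turned in several other settings, among them 0.93 in pre-exposed mice 1 and 5.

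**Figure D5:**
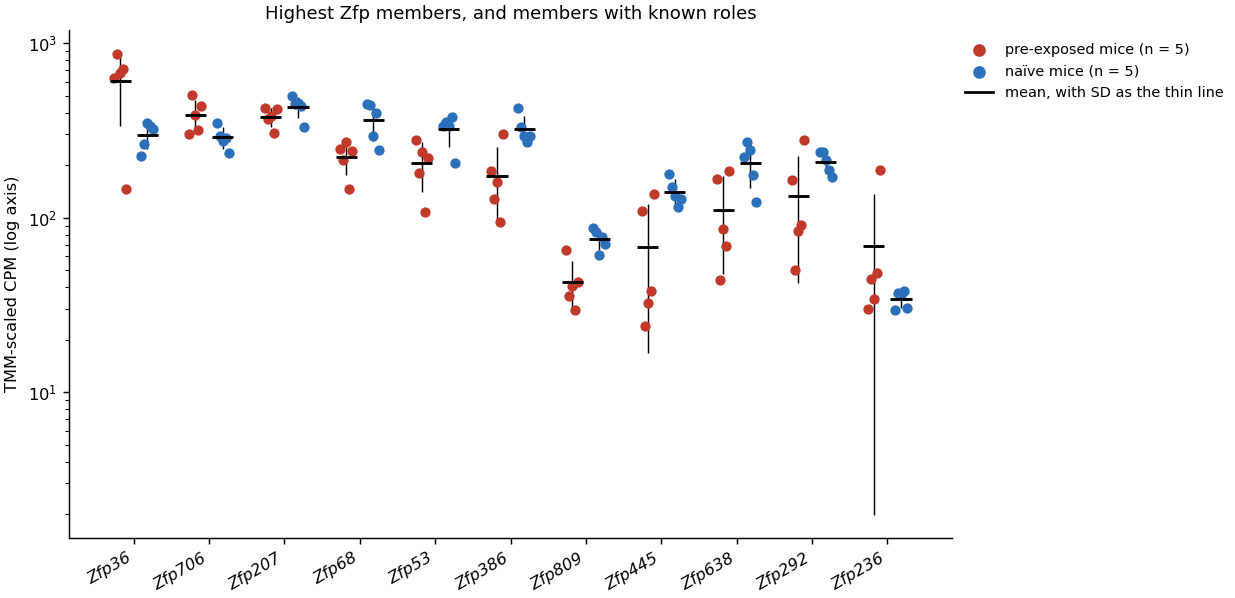
Points are single mice, with TMM-scaled CPM on a logarithmic y axis, for the 6 most abundant members and 5 members of particular roles or values, pre-exposed mice (red) left of naïve mice (blue), with group means and SD. In Zfp36 the 4 upper pre-exposed mice lie between 633 and 862 CPM and mouse 5 at 146 CPM, while in Zfp236 mouse 5 lies at 188 CPM and the other 4 between 30.1 and 48.1 CPM.

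The 10 members that bind RNA or act in ribosome formation and quality control had a median of 0.21, with 0 called by edgeR or DESeq2 (4 at an unadjusted p under 0.05). Besides Zfp36 and Zfp207, Zfp622 and Zfp593, which serve in maturation of the large ribosomal subunit, had log2 fold changes of 0.54 and 0.60, and Zfp638, which represses unintegrated retroviral DNA, had -0.92 (edgeR adjusted p = 0.183, 0.185 and 0.136). Zfp622 was the other member that was higher in pre-exposed mice 2 to 4, with a log2 fold change of 0.79 (edgeR adjusted p = 0.0216). Zfp346, Zfp106, Zfp326, Zfp598 and Zfp706 made up the rest of this list. The ligases Zfp451 and Zfp91 had -0.50 and -0.20.

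Of the 5 listed lymphocyte regulators 3 were members, with values between -0.68 and -0.31 and 0 called by edgeR or DESeq2 (1 at an unadjusted p under 0.05). Zfp335, which T cells need to mature, had 50.4, 18.9, 24.9, 63.6 and 14.7 CPM in pre-exposed mice 1 to 5, against 45.7, 37.4, 65.1, 52.2 and 78.6 CPM in naïve mice 1 to 5, with overlapping groups. The others were Zfp281 and Zfp318. The 14 widely expressed transcription factors had a median of -0.37 and values between -0.96 in Zfp407 and 0.07 in Zfp131, with 0 called over all libraries by edgeR or DESeq2 (1 at an unadjusted p under 0.05). They also included Zfp143, Zfp148, Zfp384, Zfp410, Zfp217, Zfp219, Zfp263, Zfp292, Zfp592, Zfp687, Zfp644 and Zfp827.

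Members with a value above 0 numbered 44, of which 12 had a KRAB pattern. After Zfp36 the largest were those of Zfp236, with 1.00, and Zfp382, with 0.89. Zfp236 had 30.1, 44.7, 34.2, 48.1 and 188 CPM in pre-exposed mice 1 to 5, against 29.7, 36.9, 35.9, 37.8 and 30.5 CPM in naïve mice 1 to 5, and without pre-exposed mouse 5 its log2 fold change was 0.17. Zfp382, a KRAB gene, had 7.51, 9.49, 10.3, 8.54 and 3.27 CPM in pre-exposed mice 1 to 5, against 5.80, 4.09, 1.48, 5.32 and 5.35 CPM in naïve mice 1 to 5, and 4 pre-exposed mice were above every naïve mouse. Neither passed the test (edgeR adjusted p = 0.172 and 0.197).

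The partners through which KRAB proteins silence chromatin were given by a list of 26 symbols, 25 of which were tested. Over all libraries 0 were called by edgeR or DESeq2 (2 at an unadjusted p under 0.05, both higher), and the median was -0.20. Trim28, the co-repressor that binds the KRAB domain, had a log2 fold change of 0.36, and Setdb1, which methylates histone H3, -0.30 (edgeR adjusted p = 0.465 and 0.519). In pre-exposed mice 2 to 4, Tasor, the scaffold of the HUSH silencing complex, Morc3 and Smarcad1, which encode chromatin ATPases, were lower, with log2 fold changes of -2.25, -1.31 and -1.15, and Rbbp4, a histone-binding subunit of several complexes, was higher with 1.03 (edgeR adjusted p = 0.000348, 0.00529, 0.0215 and 0.0104). The 3 lower and 1 higher of 25 stand beside 8.27% and 9.55% of all genes tested, and in the same comparison 17.9% of other genes of 4000 to 6000 bases and 30.5% of those of at least 6000 bases were lower. Tasor, Morc3 and Smarcad1 have 7577, 4179 and 5098 bases. In mice 1 and 5 these 4 had 0.08, 0.07, 0.37 and -0.19, and none passed. Over all libraries Tasor had a log2 fold change of -0.88 (edgeR adjusted p = 0.26). The paper, with voom and TREAT, listed this gene as lower under its older symbol Fam208a.

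Promoters of members, from 250 bases before to 50 after the start (RefSeq, GRCm38.p6), were in hand for 236 of the 277, with 280 starts. Read on both strands, CCAAT, the letters bound by NF-Y, occurred in 55.4% of promoters of KRAB members, 41.5% of those of members without the pattern, and 37.4% of all 32851 promoters. The GC box GGGCGG occurred in 36.3%, 56.8% and 35.7% of the same sets, and the ETS letters CCGGAAG in 22.9%, 20.3% and 8.86%. Among promoters of genes tested the shares were 38% for CCAAT, 61% for GGGCGG and 18% for CCGGAAG. In the 22 members that were lower and had a promoter they were 50%, 50% and 27.3%. None of the 3 motifs contains another, and a match is a description of the sequence only.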

How the data were processed

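RNA-seq counts of read pairs per Entrez gene were used as deposited by the authors, who aligned paired-end reads with Subread to mm10 and counted them with featureCounts and its NCBI annotation (featureCounts and mm10 are also in the submitters' processing notes). The 10 per-library files were equal to the series table. Columns were matched to mice by the labels, and replicate numbers of the 2 groups name separate mice.

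Of 27179 genes, 13534 passed edgeR's filterByExpr. After removal of 767 without a symbol and 112 immunoglobulin genes, 12655 were tested with edgeR 4.0.16 (TMM, robust quasi-likelihood F test, Benjamini-Hochberg threshold 0.05) in R 4.3.3, without a block. A fit with 3 groups separated pre-exposed mice 2 to 4 from mice 1 and 5. The length offset was a loess curve (span 0.3) per library. Single genes were tested by an exact two-sided permutation test. Log2 CPM used a prior count of 2.

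Fingers were searched in the longest reading frame of each gene in GENCODE M21 protein-coding transcripts. RefSeq proteins were not used here. A finger was 2 cysteines with 2 to 4 residues between them, 12 residues, and 2 histidines with 3 to 5 between them. KRAB patterns were searched in every reading frame of at least 80 residues in these transcripts, not only the longest. Either of 2 stretches counted. The first was phenylalanine or leucine, any residue, aspartate, valine, any residue, a hydrophobic residue, any residue and phenylalanine. The second was tyrosine or histidine, any residue, an acidic residue or asparagine, valine, methionine, any residue and glutamate. Shared sequence was counted over windows of 75 bases. Positions are GRCm38. The stretch of 1 further member is not reported here.

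Genes named in the text were the 10 lower members with the smallest p, the 3 with the largest positive fold change where none was called higher, the 6 most abundant, members of role lists, the member with the smallest p and the most abundant member of larger clusters, those next to 5 CPM, and the 3 shortest and longest. Other names were chosen after their values were seen. The members and lists were chosen with earlier results of these data known.

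Alternatives were DESeq2 1.42.0, limma 3.58.1 (voom, TREAT at a fold of 1.5), DESeq2 size factors, column totals, no filter, the older quasi-likelihood method, a replicate block, the length offset, other CPM and cluster limits, and each mouse left out. The fits were tested on simulated data. Without a length trend edgeR recovered 67% of 4-fold and 3% of 2-fold changes, with 5.4% of calls false. With a simulated length trend 95.9% of calls were false without the length offset. With the offset 5.5% were false, and 51% of 4-fold and 1% of 2-fold changes were recovered. The simulated trend was a fixed one, the same in every mouse of a group, and was not matched to these data.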

Additional observations from a re-analysis of the deposited data

Results flagged for a closer look

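Within groups of 5 mice, 7 of 130 groups checked held a mouse far from the other 4, where chance gives about 1 in 20. Pre-exposed mouse 5 was far above the others in Zfp236, with 188 CPM, and in Zfp91, with 70.9 CPM, and it was apart in Zfp85, with 35.1 CPM. Pre-exposed mouse 1 was apart in Zfp970, with 21.3 CPM. Naïve mouse 5 was apart in Zfp53, with 204 CPM, in Zfp511, with 58.8 CPM, and in Zfp688, with 24.9 CPM.

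The effect in pre-exposed mice 2 to 4 differed from that in mice 1 and 5, tested in the same edgeR fit, for 27 members, all lower in mice 2 to 4. Lower values were also the commoner direction over all 12655 genes tested, with 346 (2.73%) lower and 42 higher in mice 2 to 4. Of 63 members whose own values were followed, 8 differed, with log2 differences of -1.97 for Zfp33b, -2.18 for Zfp40, -1.96 for Zfp445, -2.81 for Zfp708, -1.41 for Zfp638, -1.56 for Zfp292, -1.70 for Zfp984 and -1.42 for Zfp26. The labels name no index pair for mice 2 to 4, and the part of library preparation in these differences was not tested.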

How the results depend on the processing

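The median log2 fold change of the members kept its sign under all alternatives run, and how many members passed depended on the setting. Against 27 lower, there were 47 with DESeq2, 0 with TREAT, 11 with the older quasi-likelihood method, 5 with the length offset, 98 in pre-exposed mice 2 to 4 (2 higher against 0) and 1 in mice 1 and 5, and 2 to 82 when each mouse was left out (0 to 2 higher, medians -0.69 to -0.51). The paper, also with voom and TREAT at a fold of 1.5, listed Zfp genes as lower, among them Zfp40, Zfp760, Zfp33b and Zfp729a. It also listed Zfp445, Zfp975, Zfp738, Zfp995, Zfp759 and Zfp729b as lower, none of which was among the 27 here. The TREAT run here did not reproduce those calls, and the reason was not tested. Against 98 lower and 2 higher in mice 2 to 4, there were 25 and 0 with TREAT and 63 and 1 with the length offset (median -0.50), while higher members numbered 4 with DESeq2 and 1 without a filter, and leaving out mice gave 37 to 133 lower, 0 to 8 higher and medians of -0.86 to -0.70. Against 1 lower and 0 higher in mice 1 and 5, there were 7 and 2 with DESeq2, 2 and 1 without a filter, 0 lower with column totals, TREAT, the older method and the length offset, and 0 to 38 lower, 0 to 11 higher and medians of -0.55 to -0.29 when mice were left out. Against 27 lower and 0 higher in mice 2 to 4 set against mice 1 and 5, there were 63 and 3 with DESeq2, 0 lower with TREAT, 1 higher with the length offset, 3 lower with column totals (median -0.076, where all genes had 0.29), and 3 to 52 lower, 0 to 18 higher and medians of -0.47 to -0.24 when mice were left out. The replicate block gave 3 lower over all mice, 3 lower and 0 higher in mice 2 to 4, 0 lower in mice 1 and 5 and 0 lower between them, and with the length offset 2, 1, 0 and 0 lower, with 0 higher in mice 2 to 4. Correlations of same-numbered mice were -0.26 to 0.05, which gave no sign that the numbers pair the samples, but 5 such values cannot exclude it. Zfp729a, Zfp760 and Zfp709 stayed past the threshold in 18, 19 and 17 of 21 settings. Signs turned with the length offset in Zfp207 (0.065, with the block 0.037), Zfp708 (0.10), Zfp688 (-0.20 and -0.19), Zfp637 (-0.045 and -0.064), Zfp871 (0.060 and 0.017) and Zfp91 (0.13), in mice 1 and 5 in Zfp708 (0.93), Zfp292 (0.074), Zfp26 (0.084) and Zfp91 (0.55), and with column totals in Zfp131 (-0.045). When mice were left out, Zfp708 ran from -1.23 to 0.16, Zfp91 from -0.96 to 0.0062 and Zfp131 from -0.11 to 0.19. Beyond the construction of each setting the cause was not tested. Cluster gaps of 250 and 1000 kb gave 23 and 27 clusters in place of 26, and the median of cluster medians was -0.66 and -0.62, against -0.65. With 5 mice a group, members that did not pass are not shown to be unchanged.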
